A study of Arabidopsis thaliana with 16 samples.

Results

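The tubulin genes of the Arabidopsis root were followed along 4 longitudinal zones on iron-deficient and on standard medium. The members were all probe sets of the array that the platform annotation assigns to exactly 1 gene with an alpha-tubulin (TUA) or beta-tubulin (TUB) symbol. There were 7, among 13513 probe sets with 1 gene and 22746 in all. They stand for 7 of the 15 alpha- and beta-tubulin loci in RefSeq, namely 2 of 6 alpha loci (TUA1, AT1G64740, and TUA6, AT4G14960) and 5 of 9 beta loci (TUB1, AT1G75780; TUB5, AT1G20010; TUB6, AT5G12250; TUB7, AT2G29550; TUB9, AT4G20890). The other 8 loci were not analysed here by name. All 7 probe sets read above the 40th percentile of their array on each of the 16 arrays, so none depended on the filter on low values.

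Microtubules are hollow filaments built from dimers of an alpha- and a beta-tubulin protein, and small gene families encode both partners in plants. In dividing root cells they form the preprophase band, the spindle and the phragmoplast, the structure that guides the new cell plate. In elongating cells they lie in arrays under the plasma membrane, along which cellulose synthase complexes travel.

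Seedling roots of the Columbia ecotype grew on standard medium for 5 days and were then moved either to -Fe medium, in which 0.3 mM Ferrozine, an iron chelator, stood in for the iron salt, or to fresh standard medium, which held iron as Fe(III)-EDTA. Roots were divided by hand into zone 1 (the tip, about 150 µm), zone 2 (the next 200 µm or so, up to where the meristem roughly ends), zone 3 (another 200 to 300 µm, ending where hairs start to emerge) and zone 4 (about 1 mm above that). Each of the 8 groups had 2 arrays, each made from a pool of about 15 roots after two-cycle amplification. By their sample descriptions the -Fe roots were taken 24 h and the standard roots 1 h after transfer, but by the treatment protocol all were taken at 24 h, so medium and time since transfer cannot be told apart if the descriptions are right.

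Values are array intensities on a linear scale, with a median per array between 51.2 and 76.0 units. The medium labels were checked with BHLH101, a transcription factor gene of the iron-deficiency response, which read 59.2 to 1265 units on the -Fe arrays and 0.970 to 13.9 units on the standard arrays. The replicates of zone 3 on standard medium were the least alike (r = 0.921 across probe sets, against 0.951 to 0.974 in the other groups), which touches every value of that group below. As a measure of RNA quality and amplification, the 3' over 5' signal of ubiquitin ran from 7.26 to 11.9 in zone 1, from 5.85 to 6.56 in zone 2, from 5.04 to 6.49 in zone 3 and from 4.34 to 6.06 in zone 4. The first of 2 actin sets ran from 47.5 to 62.2, 28.4 to 44.2, 20.8 to 30.3 and 11.6 to 18.2 in zones 1 to 4, and the second, at 3.93 to 10.2 over all zones, did not follow that order. The first GAPDH set was at 3.55 to 5.48 in zone 1 and 2.05 to 2.89 in the other zones. The second GAPDH set was at 1.59 to 2.17 in zone 1 and 1.40 to 2.16 in zone 3, with zones 2 and 4 inside the latter range. A second ubiquitin set was again highest in zone 1, at 5.32 to 6.45, and was at 2.64 to 3.21 in zone 4. The 25S ribosomal RNA control read 348 units on zone 4 standard replicate 2 and 2953 to 8609 units on the other arrays. The part of these ratios in the zone results was not tested, nor was that of the 25S reading in the zone 4 values. A piece of root holds many cell types, so fewer cells of a type and less RNA per cell cannot be told apart.

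Transcripts of all 7 tubulin genes differed between zones on each medium, and each gene had its highest mean in the same zone on -Fe and on standard medium. TUA6, TUB1, TUB5 and TUB6 had their highest mean in zone 2, TUA1 and TUB9 in zone 3 and TUB7 in zone 1, on both media. Not every peak stood apart from its neighbour. Zones 2 and 3 did not differ past the threshold for TUB1, TUB5 and TUB9 on either medium, or for TUA6 on standard medium. The same held for zones 3 and 4 of TUA1 and zones 1 and 2 of TUB7. Leaving out 1 array turned the sign of zone 3 minus zone 2 on standard medium for TUA6 (0.18), TUB1 (0.28) and TUB9 (-0.045). The moderated F test over the 4 zones called 7 of 7 members on -Fe medium (limma, adjusted p from 2.54e-05 for TUB7 to 0.00153 for TUA1), where 77.4% of the 16505 probe sets tested were called. On standard medium it also called 7 of 7 (adjusted p from 4.84e-05 for TUB7 to 0.0078 for TUB9), against 73.7% of all probe sets. Most probe sets thus differed between zones in these roots, and the count of members is read against that share. With median centring of the arrays TUB9 missed the threshold on standard medium (adjusted p = 0.0514).

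**Figure D1:**
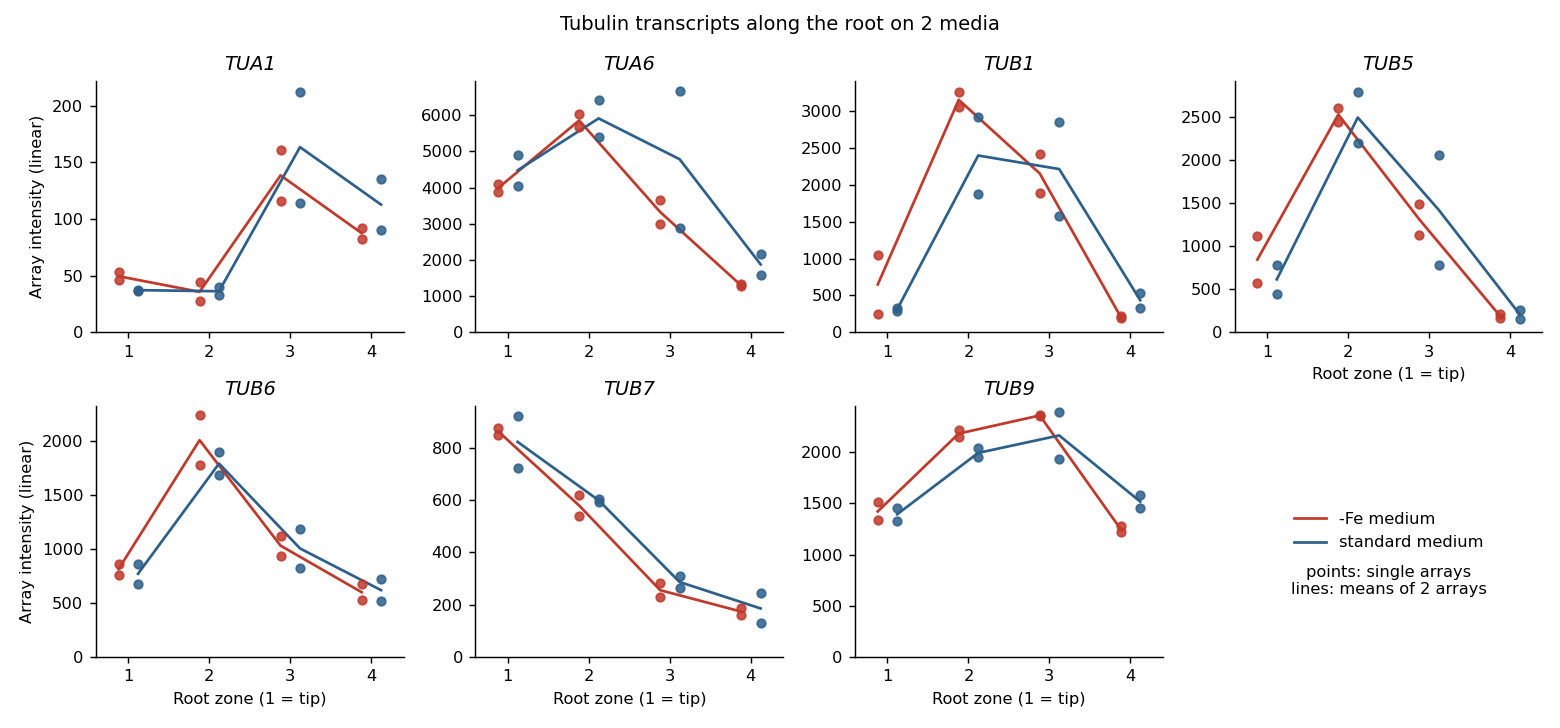
Array intensity (linear units) of the 7 tubulin probe sets in root zones 1 to 4, each panel on its own axis from 0. Points are single arrays, red for -Fe and blue for standard medium, and lines join the means of 2 arrays. The mean of TUB7 is highest in zone 1, of TUA6, TUB1, TUB5 and TUB6 in zone 2, and of TUA1 and TUB9 in zone 3, on both media. Some of these peaks did not pass the threshold against a neighbouring zone.

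TUA6 encodes a widely expressed alpha-tubulin that is often used, fused to a fluorescent protein, to mark microtubules. On -Fe medium its probe set read 4096 and 3876 units in zone 1, 5680 and 6032 in zone 2, 3664 and 2982 in zone 3, then 1263 and 1320 in zone 4. On standard medium it read 4909 and 4042 units in zone 1, 6423 and 5400 in zone 2, 2891 and 6674 in zone 3, then 1593 and 2156 in zone 4. Zone 4 was the lowest on both media, with no overlap with any other zone, while the standard zone 3 arrays spanned the whole range of zones 1 and 2. The step from zone 3 to zone 4 was a difference of -1.35 on the log2 scale on -Fe medium (SE 0.30, limma, adjusted p = 0.0101) and -1.24 on standard medium (SE 0.30, adjusted p = 0.0267). Between zones 2 and 3 it fell by 0.82 on -Fe medium (adjusted p = 0.0362), and the difference of -0.42 on standard medium did not pass (adjusted p = 0.26). Its gain of 0.55 on -Fe and 0.40 on standard medium from zone 1 to zone 2 did not pass on either (adjusted p = 0.179 and 0.353).

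TUA1 encodes an alpha-tubulin known mainly for its high expression in pollen. Its probe set was dim, at 46.0 and 52.7 units in zone 1, 27.2 and 44.0 in zone 2, 161 and 116 in zone 3, then 92.2 and 82.7 in zone 4 on -Fe medium. The standard arrays read 37.6 and 36.6 units in zone 1, 39.4 and 32.8 in zone 2, 212 and 114 in zone 3, then 90.1 and 135 in zone 4. Every array of zones 3 and 4 lay above every array of zones 1 and 2 on both media. The rise from zone 2 to zone 3 was 1.77 ± 0.33 on -Fe medium (log2, SE, limma, adjusted p = 0.000834) and 1.91 ± 0.33 on standard medium (adjusted p = 0.000575), or 3.89 and 4.52 times in mean intensity. No other step of TUA1 passed the threshold, and the differences of zone 4 from zone 3 were -0.60 and -0.47 on -Fe and standard medium (adjusted p = 0.258 and 0.402). The 2 measured markers of pollen, of 4 listed, summed to between 1.63 and 16.3 units on each of the 16 arrays, and neither passed the filter on low values. Of 6 root hair markers 3 were measured, and in the zone where TUA1 was highest their summed intensity was 9566 to 11608 units on -Fe and 8469 to 9079 on standard medium, against 1046 to 1265 and 1187 to 1806 in zone 2. The sum was 679 to 839 on -Fe and 771 to 871 units on standard medium in zone 1, and 3103 to 5030 and 4257 to 7828 in zone 4. The 3 markers were not alike. From zone 2 to zone 3, EXPA7 went from 49.3 to 4661 units on -Fe and from 214 to 3206 on standard medium. EXPA18 went from 30.0 to 3944 and from 140 to 3207 units. SCN1 went from 1077 to 1982 and from 1143 to 2361 units, and gave most of the sums in zones 1 and 2. The part of these markers in the TUA1 result was not tested.

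TUB1 is a beta-tubulin gene known for transcripts that accumulate mainly in roots. On -Fe medium it read 1052 and 244 units in zone 1, 3259 and 3054 in zone 2, 1885 and 2427 in zone 3, then 198 and 216 in zone 4. On standard medium the values were 329 and 292 units in zone 1, 2923 and 1877 in zone 2, 1581 and 2851 in zone 3, then 334 and 535 in zone 4. Zones 2 and 3 stood above zones 1 and 4 on every array, and the zone 2 and zone 3 arrays overlapped on standard medium but not on -Fe medium.

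The mean of TUB1 in zone 2 was 4.87 times that of zone 1 on -Fe medium (log2 difference 2.62 ± 0.51, SE, limma, adjusted p = 0.00414) and 7.73 times on standard medium (2.89 ± 0.51, adjusted p = 0.00441). Between zones 2 and 3 the differences of -0.56 and -0.14 on -Fe and standard medium did not pass (adjusted p = 0.386 and 0.836). In zone 4 it fell by 3.32 relative to zone 3 on -Fe medium (adjusted p = 0.00156) and differed by -2.31 on standard medium (adjusted p = 0.0189). The 2 arrays of zone 1 on -Fe medium differed by more than 4 times for this gene. Replicate 1, the high array, had 1266 units of AT1G65570, the 1 measured marker of 5 listed for the root cap, and replicate 2 had 2851 units. The part of the root cap in that spread was not tested.

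TUB5, another beta-tubulin gene, had the same order of zones on both media, with zone 2 highest, then zones 3, 1 and 4. Its -Fe arrays read 1113 and 569 units in zone 1, 2604 and 2443 in zone 2, 1127 and 1488 in zone 3, then 209 and 160 in zone 4. Its standard arrays read 783 and 440 units in zone 1, 2781 and 2198 in zone 2, 785 and 2051 in zone 3, then 154 and 259 in zone 4. No 2 neighbours in that order overlapped on either medium, though the lower zone 3 array (785) and the higher zone 1 array (783) nearly met on standard medium. From zone 1 to zone 2 it rose by 1.65 ± 0.44 on -Fe medium (log2, SE, limma, adjusted p = 0.0159) and by 2.06 ± 0.44 on standard medium (adjusted p = 0.0102). From zone 3 to zone 4 it fell, with differences of -2.77 on -Fe medium (adjusted p = 0.00193) and -2.62 on standard medium (adjusted p = 0.00551). The differences of zone 3 from zone 2, -0.96 on each medium, missed the threshold (adjusted p = 0.0904 and 0.0906). In mean intensity zone 2 was 13.7 times zone 4 on -Fe medium and 12.1 times on standard medium.

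TUB6, a beta-tubulin gene whose product also serves as a fluorescent microtubule marker, had its peak in zone 2. It read 762 and 864 units in zone 1, 1773 and 2239 in zone 2, 938 and 1120 in zone 3, then 523 and 673 in zone 4 on -Fe medium. Standard arrays gave 863 and 675 units in zone 1, 1894 and 1684 in zone 2, 823 and 1184 in zone 3, then 721 and 513 in zone 4. Zone 2 lay above all other zones on both media, while zones 3, 1 and 4 overlapped with their neighbours in this order on standard medium. The gene rose from zone 1 to zone 2 by 1.29 ± 0.25 on -Fe medium (log2, SE, limma, adjusted p = 0.00386) and by 1.22 ± 0.25 on standard medium (adjusted p = 0.00784). It fell from zone 2 to zone 3, with differences of -0.95 on -Fe medium (adjusted p = 0.00624) and -0.85 on standard medium (adjusted p = 0.0123). The last step was a difference of -0.78 on -Fe medium, at the edge of the threshold (adjusted p = 0.05 after rounding, called), and of -0.69 on standard medium (adjusted p = 0.0975). The -Fe call of this last step was lost without any of 12 of the 16 arrays.

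TUB9, like TUA1 known mainly from pollen, varied least along the root among the members. On -Fe medium it read 1511 and 1333 units in zone 1, 2151 and 2217 in zone 2, 2366 and 2356 in zone 3, then 1220 and 1276 in zone 4. On standard medium it read 1457 and 1332 units in zone 1, 2039 and 1951 in zone 2, 1933 and 2398 in zone 3, then 1455 and 1582 in zone 4. Zones 2 and 3 were above zones 1 and 4 on every array, and the highest mean was 1.89 times the lowest on -Fe medium and 1.55 times on standard medium. From zone 1 to zone 2 it rose by 0.62 ± 0.16 on -Fe medium (log2, SE, limma, adjusted p = 0.0129) and by 0.51 ± 0.16 on standard medium (adjusted p = 0.0388). Zone 3 differed from zone 2 by 0.11 on each medium (adjusted p = 0.582 and 0.588). From zone 3 to zone 4 it fell by 0.92 on -Fe medium (adjusted p = 0.00285), and the difference of -0.50 on standard medium did not pass (adjusted p = 0.0678).

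TUB7, a beta-tubulin gene, was the only member that was highest at the tip and lower in each zone above it. Its -Fe arrays read 876 and 850 units in zone 1, 617 and 540 in zone 2, 282 and 228 in zone 3, then 159 and 187 in zone 4. Its standard arrays read 921 and 723 units in zone 1, 604 and 594 in zone 2, 263 and 309 in zone 3, then 243 and 128 in zone 4. The zones followed this order with no overlap between neighbours on either medium. The step from zone 2 to zone 3 passed, with differences of -1.16 on -Fe medium (SE 0.27, limma, adjusted p = 0.00315) and -1.05 on standard medium (SE 0.27, adjusted p = 0.00618). The steps on either side did not pass, at -0.57 and -0.44 for zone 2 against zone 1 (adjusted p = 0.124 on -Fe and 0.252 on standard medium) and -0.54 and -0.67 for zone 4 against zone 3 (adjusted p = 0.211 and 0.135). AUR1, an Aurora kinase gene of mitosis and the 1 measured marker of 7 listed for dividing cells, was also highest in zone 1, at 981 to 1164 units on -Fe and 896 to 993 on standard medium, against 294 to 314 and 304 to 490 in zone 2 and 108 to 133 and 115 to 150 in zone 3. In zone 4, where TUB7 was lowest, AUR1 read 236 to 297 units on -Fe and 176 to 307 on standard medium, above its zone 3 values. The part of dividing cells in the TUB7 pattern was not tested.

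By step, the called changes of tubulin transcripts were all upward between zones 1 and 2 and all downward between zones 3 and 4. From zone 1 to zone 2, 4 of 7 members rose and none fell on -Fe medium, where 13.4% of all probe sets were called higher and 17.2% lower. On standard medium 4 of 7 rose and none fell, against 10.6% higher and 9.83% lower among all probe sets. The same 4 genes, TUB1, TUB5, TUB6 and TUB9, rose on both media, and the median over the members was 0.62 on -Fe and 0.51 on standard medium, beside -0.15 and -0.07 over all probe sets tested. The TUB9 call on standard medium was lost without any of 8 of the 16 arrays (adjusted p up to 0.202), without the filter (0.056) and with median centring (0.104). The root cap marker AT1G65570 read 1266 to 2851 units in zone 1 on -Fe and 1132 to 3429 on standard medium. In zone 2 it read 1.46 to 2.33 and 12.2 to 16.2 units. The part in this step of this marker, or of the EXPA7 readings given below, was not tested. The count on standard medium was 0 without zone 2 standard replicate 1, the array with 397 units of the root hair gene EXPA7 against 31.1 in its replicate, and 1 without zone 1 standard replicate 2. On -Fe medium it was 2 (TUB1 and TUB6) without zone 1 -Fe replicate 2 or without either zone 2 -Fe array.

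Between zones 2 and 3 the called changes went both ways, among the members as among all probe sets. On -Fe medium 1 member rose (TUA1) and 3 fell (TUA6, TUB6 and TUB7), where 22.9% of all probe sets were called higher and 27.8% lower. On standard medium 1 rose (TUA1) and 2 fell (TUB6 and TUB7), against 22.9% higher and 27.1% lower. The medians were -0.82 on -Fe and -0.42 on standard medium, beside -0.09 and -0.06 over all probe sets. The calls of TUA1 and TUB7 held without any single array on both media. The TUA6 call on -Fe medium was lost without any of the 4 arrays of zones 2 and 3 on that medium, and TUB6 was lost on -Fe medium without zone 2 -Fe replicate 2, which left 2 members called. On standard medium TUB6 was lost without zone 2 standard replicate 1 (adjusted p = 0.0642) and without zone 3 standard replicate 1 (adjusted p = 0.108). Without zone 3 standard replicate 2 the standard count was 5, since TUA6 and TUB5 then passed too (-1.02, adjusted p = 0.00302, and -1.65, adjusted p = 0.00996).

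From zone 3 to zone 4 no member rose. On -Fe medium 5 of 7 fell (TUA6, TUB1, TUB5, TUB6 and TUB9), where 6.82% of all probe sets were called higher and 8.74% lower. On standard medium 3 of 7 fell (TUA6, TUB1 and TUB5), against 3.28% higher and 5.3% lower. The medians were -0.92 on -Fe and -0.69 on standard medium, beside 0.06 and 0.07 over all probe sets. TUB1, TUB5 and TUB9 stayed called on -Fe medium without any single array, and 3 members were called there without zone 3 -Fe replicate 1 or without either zone 4 -Fe array. The standard calls rested on 2 arrays: none was left without zone 3 standard replicate 2 or without zone 4 standard replicate 1, and 5 were called without zone 3 standard replicate 1. The estimate had the same sign on both media for 7 of 7 members in each of the 3 steps.

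**Figure D2:**
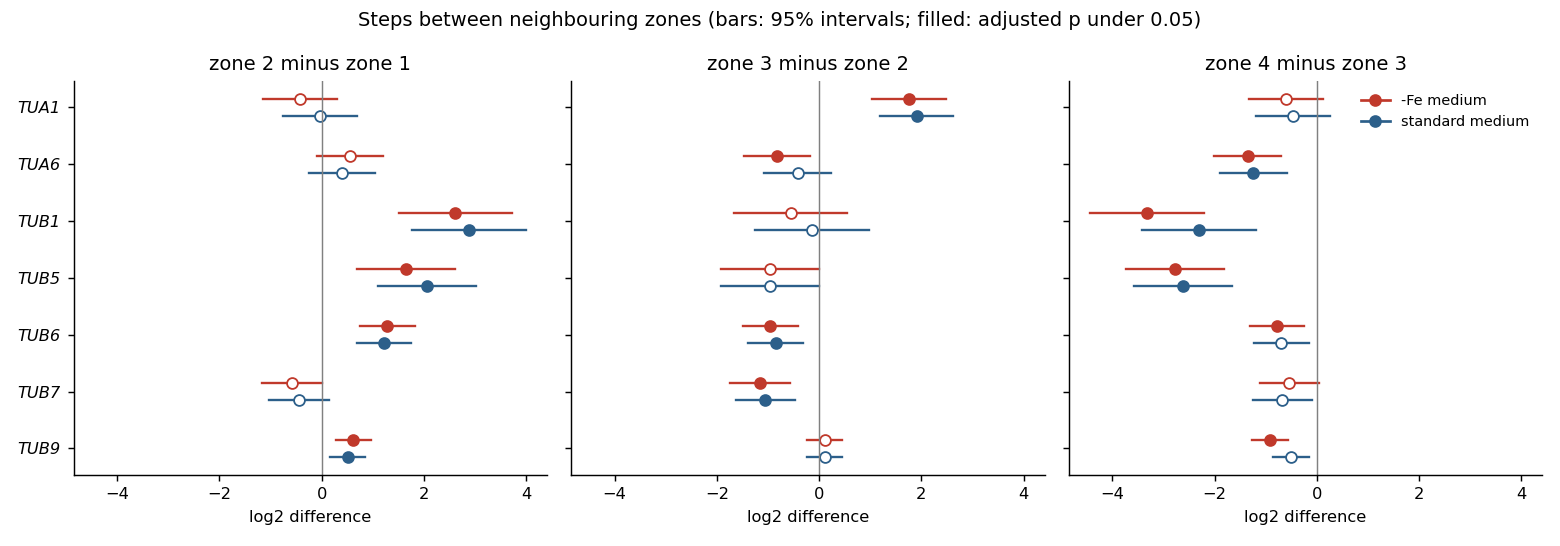
Log2 difference between neighbouring zones (later minus earlier) for the 7 tubulin probe sets, with -Fe medium in red above standard medium in blue. Bars are 95% intervals from limma, and filled points passed at an adjusted p under 0.05. On both media TUB1, TUB5, TUB6 and TUB9 are filled on the right of 0 for zone 2 against zone 1. For zone 3 against zone 2, TUA1 is filled on the right and TUB6 and TUB7 on the left of 0 on both media. For zone 4 against zone 3, TUA6, TUB1 and TUB5 are filled on the left of 0 on both media.

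Iron deficiency left no called difference in any tubulin transcript. In zone 1, 0 of 7 members passed between -Fe and standard medium, where 0.109% of all probe sets did. In zone 2 it was 0 of 7 against 0.103%, in zone 3 it was 0 of 7 against 0.291%, and in zone 4 it was 0 of 7 against 0.927%. Averaged over the zones 0 of 7 passed, against 1.41% of all probe sets. Calls were so rare among all probe sets that a count of 0 among 7 says little about the tubulins in particular. None of the 28 pairs of member and zone reached an unadjusted p under 0.05 in limma, and neither did any member averaged over the zones.

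The intervals show what sizes of medium effect these arrays left room for. Averaged over the zones, TUB9 differed by 0.00 between -Fe and standard medium (log2, 95% interval -0.17 to 0.17, 8 against 8 arrays), which corresponds to 0.889 to 1.13 times. The interval was -0.20 to 0.33 for TUB6, -0.33 to 0.25 for TUB7 and -0.41 to 0.31 for TUA1. It was wider for the genes with the steepest zone steps, at -0.39 to 0.57 for TUB5 and -0.52 to 0.59 for TUB1. TUA6 lay furthest from 0, at -0.27 (interval -0.60 to 0.05, adjusted p = 0.434). Without zone 3 standard replicate 1, which read 2891 units of TUA6 against 6674 in its replicate, the difference was -0.43 and passed (adjusted p = 0.0472).

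Within zones, the estimate furthest from 0 was that of TUB1 in zone 4. It read 198 and 216 units there on -Fe medium, against 334 and 535 units on standard medium, a difference of -1.01 (95% interval -2.12 to 0.10, limma, adjusted p = 0.497). The groups did not overlap, but the difference was within the spread that the fit gave this gene. In zone 1 the TUB1 estimate was 0.70 (interval -0.41 to 1.81), and the test of whether the medium effect differed between zones did not pass (adjusted p = 1, unadjusted p = 0.145). That test called 0 of 7 members, against 0.121% of all probe sets, and no member had an unadjusted p under 0.05 in it. Intervals of this width do not show that a tubulin transcript was equal on both media.

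**Figure D3:**
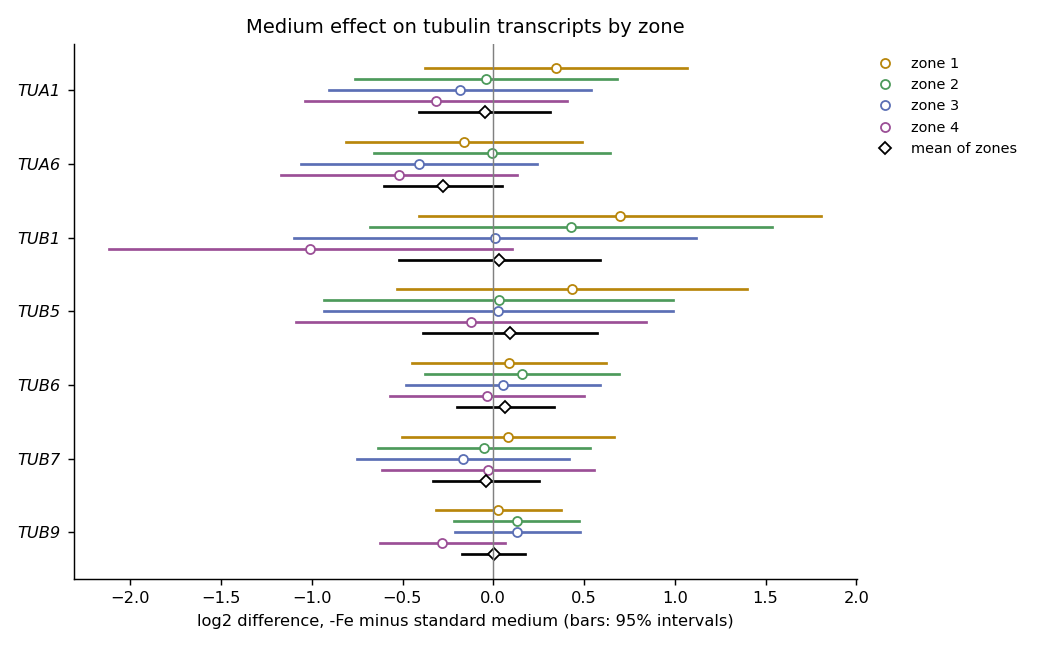
Log2 difference of -Fe minus standard medium for each tubulin probe set in zones 1 to 4 (coloured circles) and averaged over the zones (black diamonds). Bars are 95% intervals from limma, no estimate passed at an adjusted p under 0.05, and every interval includes 0.

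The members resembled each other to different degrees along the root. Over the 8 group means on the log2 scale, TUB1 and TUB9 had r = 0.97, TUB5 and TUB6 r = 0.93, and the alpha gene TUA6 and the beta gene TUB5 r = 0.91. TUB7 and TUB9 were at r = -0.0009, and TUA1 and TUB7 at r = -0.81. These values describe 8 means that come from the same 16 arrays, with each zone present on both media. TUB1 and TUB9 shared the shape while differing in range, since the TUB1 mean fell 15.3-fold from its zone 2 peak to zone 4 on -Fe medium and the TUB9 mean 1.89-fold from its zone 3 peak.

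For each member, the other genes with the highest r by the same measure over 8 group means were picked. The search covered the 9167 single-gene probe sets tested, members left out. Values above those of the 21 pairs of members come with the size of that search. The closest of all was AT2G40010 to TUB7 (r = 0.998), which read 694 units in zone 1 and 69.3 in zone 4 on -Fe medium. AT1G75710 and AT5G35930 came next for TUB7, both at r = 0.998 when rounded. AT3G05910 was closest to TUB5 (r = 0.994), before AT3G55920 (r = 0.992) and AT3G05150 (r = 0.991). For TUB1 they were AT2G45540 (r = 0.993), AT3G11590 (r = 0.988) and scpl40, a serine carboxypeptidase-like gene (r = 0.986). TUA6 had AT5G51840 and AT3G08030 at r = 0.991 and AT4G25260 at r = 0.990. AT4G09130 (r = 0.991), AT4G20450 (r = 0.989) and AT3G25790 (r = 0.9885) followed TUA1. AT1G62480 (r = 0.991), AT5G42880 (r = 0.988) and AT5G61570 (r = 0.980) followed TUB9. For TUB6 the top 3 were AT5G25070, AT1G35220 and the homeobox gene HAT2, all at r = 0.99 when rounded.

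Genes that act on tubulin or on microtubules were set beside the tubulins in 4 lists. Newly made tubulin is folded by the cytosolic chaperonin with prefoldin and then assembled into dimers by tubulin-folding cofactors. Of 21 listed loci of this route 10 were measured. These were subunit genes of the chaperonin and the cofactor genes PFI and POR, with no prefoldin gene. The medians below are therefore mainly those of the chaperonin. From zone 2 to zone 3, 10 of 10 fell on -Fe medium and 10 of 10 on standard medium, with medians of -2.24 and -1.91, where 27.8% and 27.1% of all probe sets were called lower, and 9 of 10 passed on standard medium under quantile normalization or median centring. From zone 1 to zone 2, 2 of 10 fell on -Fe and 0 of 10 on standard medium, with medians of -0.54 and -0.38, where 17.2% and 9.83% of all probe sets were called lower. With median centring 0 of 10 fell on -Fe medium over this step (median -0.25). From zone 3 to zone 4, 1 of 10 fell on each medium, near the 8.74% on -Fe and 5.3% on standard medium of all probe sets called lower. Under quantile normalization 0 of 10 fell on -Fe medium, and with median centring 0 of 10 on either medium.

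AT3G18190, a chaperonin subunit gene, read 2970 and 3055 units in zone 2 against 580 and 486 in zone 3 on -Fe medium. On standard medium it read 3255 and 4597 against 990 and 1024 units. The differences were -2.49 on -Fe medium (log2, limma, adjusted p = 8.83e-06) and -1.93 on standard medium (adjusted p = 5.85e-05). Over the same step TUB6 and TUB7 fell on both media, TUA6 fell on -Fe medium and TUA1 rose on both. TUB1, TUB5 and TUB9 were not called. The chaperonin subunit genes AT1G24510 (-1.67 and -1.27), AT3G11830 (-2.20 and -2.15) and AT5G26360 (-2.30 and -1.89) fell over this step on -Fe and standard medium too. The cofactor genes PFI (cofactor E) and POR (cofactor C), chosen here after their values were seen, also fell over it, with differences of -0.73 on -Fe and -0.72 on standard medium for PFI and of -1.04 on -Fe and -0.78 on standard medium for POR.

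Of 35 microtubule-associated protein genes listed 7 were measured, and some rose over the step from zone 1 to zone 2, as 4 tubulins did. From zone 1 to zone 2, 5 of 7 rose on -Fe and 4 of 7 on standard medium, with medians of 1.25 and 1.00, and none fell, where 13.4% and 10.6% of all probe sets were called higher. From zone 2 to zone 3, 2 rose and 1 fell on -Fe medium, and 3 rose and 1 fell on standard medium, where 22.9% of all probe sets were called higher on each and 27.8% and 27.1% lower, so that 1 of 7 lower was below that share. With median centring 3 of 7 rose on standard medium from zone 1 to zone 2, and 2 of 7 from zone 2 to zone 3. From zone 3 to zone 4, 3 of 7 fell on -Fe and 1 of 7 on standard medium, and none rose, beside 8.74% and 5.3% of all probe sets called lower. ATMAP65-6, of the family that cross-links microtubules, read 2485 and 3027 units in zone 3 against 419 and 262 in zone 2 on -Fe medium, and 1822 and 2319 against 359 and 216 units on standard medium. Its rise over this step was 3.02 on -Fe (adjusted p = 4.13e-05) and 2.85 on standard medium (adjusted p = 0.000101).

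AT3G23090 (WDL3), of a family of microtubule-binding proteins, was low in zones 1 and 2. It read 1643 and 1623 units in zone 3 against 37.4 and 7.47 in zone 2 on -Fe medium, and 1748 and 1833 against 114 and 5.90 units on standard medium. Its rise of 5.97 on -Fe (adjusted p = 7.28e-05) and 5.46 on standard medium (adjusted p = 0.000179) depends in size on the offset of the log scale. The high array of zone 2 on standard medium, replicate 1, was the one that also had the high reading of EXPA7. What that shared reading means for the WDL3 values was not tested. AT1G45688 rose from zone 1 to zone 2 by 1.57 on -Fe and 1.24 on standard medium (adjusted p = 0.000791 and 0.00228), and AT5G42860 by 2.00 and 2.53 (adjusted p = 0.00413 and 0.00273), the step at which TUB1, TUB5, TUB6 and TUB9 rose.

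Kinesins are motor proteins that move along microtubules, and many in plants serve the spindle or the phragmoplast. Of 24 listed 9 were measured. From zone 1 to zone 2 no tubulin was called lower. Of the kinesins 5 of 9 fell and 2 rose on -Fe medium, where 17.2% of all probe sets were called lower and 13.4% higher. On standard medium 2 fell and 2 rose (1 rose with median centring), against 9.83% lower and 10.6% higher among all probe sets. From zone 2 to zone 3, 3 of 9 fell on -Fe and 5 of 9 on standard medium, and none rose on either, beside 27.8% and 27.1% of all probe sets called lower. Under quantile normalization 5 of 9 fell on -Fe medium and with median centring 4 of 9, so the counts do not set the media apart. KINESIN-12B, a motor of the phragmoplast, read 198 and 197 units in zone 1, 56.3 and 45.6 in zone 2, 11.0 and 8.77 in zone 3, then 27.1 and 30.3 in zone 4 on -Fe medium. On standard medium it read 209 and 169, 58.2 and 103, 7.32 and 14.8, and 40.2 and 6.95 units in zones 1 to 4. It was highest at the tip, as TUB7 was. Its step from zone 1 to zone 2 passed on -Fe medium (-1.81, limma, adjusted p = 0.0125) but not on standard medium (-1.19, adjusted p = 0.0832). Its step from zone 2 to zone 3 passed on both media (-1.73, adjusted p = 0.00739 on -Fe, and -2.22, adjusted p = 0.00178 on standard medium). The size of that step depends on the offset of the log scale, which is close to the zone 3 readings.

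AT4G14330, another listed kinesin, was lower in zone 2 than in zone 1, with differences of -2.01 on -Fe (adjusted p = 0.00285) and -1.98 on standard medium (adjusted p = 0.00502). AT2G36200 (-2.23 and -2.14) and AT3G45850 (-1.80 and -1.54) fell from zone 2 to zone 3 on -Fe and standard medium. Of the 19 genes listed for the nucleation and alignment of microtubules 2 were measured. TON1B, which takes part in placing the preprophase band, rose from zone 1 to zone 2 by 0.77 on -Fe (adjusted p = 0.0136) and 0.74 on standard medium (adjusted p = 0.0245), and AT5G17410 fell from zone 2 to zone 3, with differences of -1.20 and -1.19 (adjusted p = 0.00342 and 0.00384). Under the other scalings of the arrays no called gene of these lists turned its sign. For the medium averaged over zones, 1 of 10 folding genes was lower on -Fe medium, where 1.41% of all probe sets passed in either direction. It was AT3G18190, at -0.56 (log2, limma, adjusted p = 0.0201). None of the 2, 7 and 9 genes in the other 3 lists passed.

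**Figure D4:**
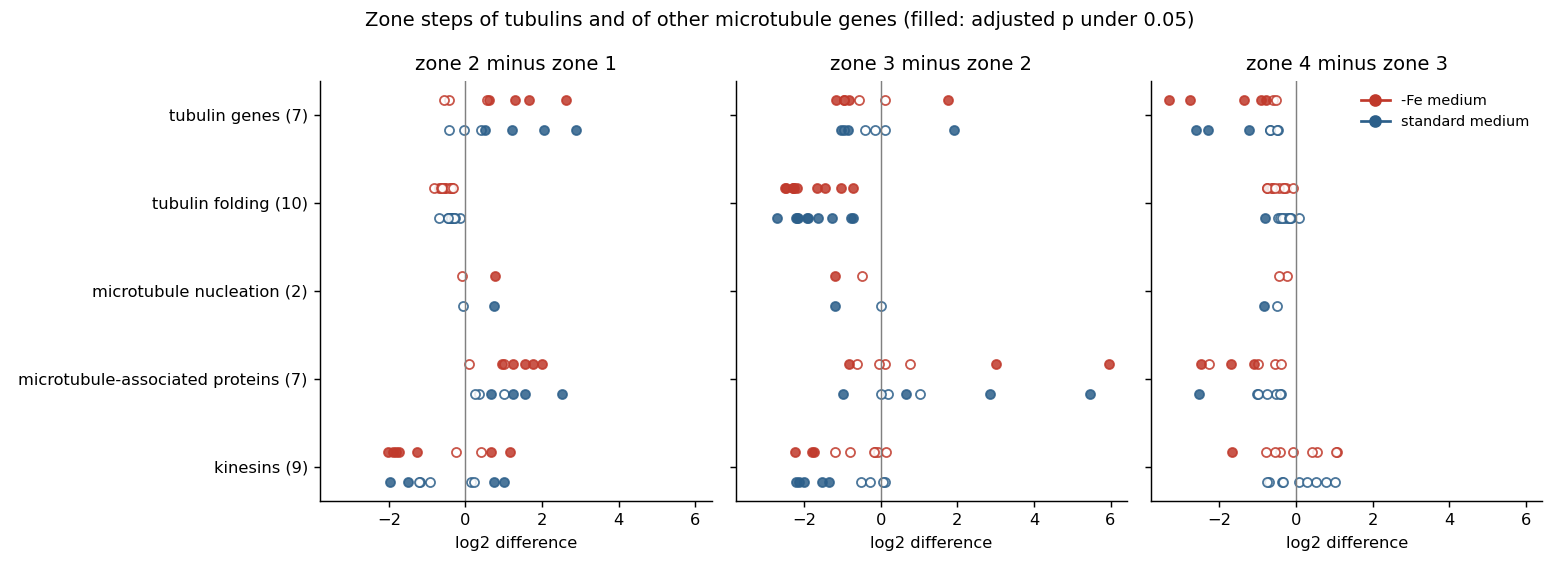
Log2 difference between neighbouring zones for each tubulin probe set and for the measured genes of 4 lists, with their number in parentheses. Red points above are -Fe medium, blue points below standard medium, and filled points passed at an adjusted p under 0.05. The 10 folding genes, most of them chaperonin subunit genes, all lie left of 0 for zone 3 against zone 2. There TUA1 and 2 microtubule-associated protein genes lie far to the right.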

How the data were processed

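The deposited values are array signal intensities on a linear scale, made by the authors with MAS5 per the submitters' processing notes. The version and the genome build are not given in the sources used here, so no coordinates are printed. The 64 control probe sets were removed, and log2(intensity + 7.73) was taken of the other 22746, the offset being their 20th percentile. This scale understates changes of dim probe sets. Probe sets above the 40th percentile of their own array on at least 2 arrays were kept (16505).

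The program limma 3.58.1 (R 4.3.3) fitted 8 group means over all 16 arrays (8 residual degrees of freedom), a trend in the variance prior and Benjamini-Hochberg adjustment per contrast over all 16505 (threshold 0.05). Contrasts were the 3 zone steps on each medium, the medium difference zone by zone and as a mean of zones, and F tests over 4 zones and of the difference between zones. A log2 difference is later minus earlier zone, or -Fe minus standard medium, and levels of different probe sets were not compared. The code of the fit was run on simulated data with independent noise and few changed probe sets. That setting differs from these arrays, so the run does not speak to the calls given here.

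The platform annotation was updated to RefSeq names of TAIR10.1. The members and the lists were chosen with earlier results of these data known, and lists are described by counts and medians. The text names all members, and from each list up to 4 genes with the smallest p over the zones on standard medium, plus the 3 genes most like each member. BHLH101 and EXPA7 served as checks. Markers of xylem (6), phloem (2) and green leaf cells (4) had 0 measured genes. The labels do not state whether the 2 pools of a group were grown apart, so the p-values reflect only how far these samples differed, which may be partly technical. Alternatives were another offset or none, no filter, 2 other scalings, a replicate block and leaving out each array.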

Additional observations from a re-analysis of the deposited data

How the results depend on the processing

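A doubled offset, no offset, no filter, quantile normalization, median centring and the replicate number as a block each moved the counts of called members by at most 1.5 times. Under the replicate block 4, 4 and 5 members were called for the 3 zone steps on -Fe and 4, 3 and 3 on standard medium, as without it. The labels do not say that a number marks a shared batch, and same-numbered arrays of 2 groups deviated together at r from -0.126 to 0.465 over 28 pairs of groups. For the 4 pairs of groups of the same zone on both media r was 0.180 to 0.370, over 0.1 in 4 of 4, so a shared number may mark something in the medium contrasts. The block left 0 members called in each of those contrasts, as without it. With 2 numbers per group the fit without the block was kept. Across settings 4 member calls of the zone steps were lost at least once: TUB6 from zone 3 to 4 on -Fe medium (adjusted p up to 0.0951), TUA6 from zone 2 to 3 on -Fe (up to 0.073) and from zone 3 to 4 on standard medium (0.0614), and TUB9 from zone 1 to 2 on standard medium (up to 0.104). Median centring moved the median of all probe sets for zone 2 against zone 1 on -Fe medium to 0.14 and quantile normalization to -0.01, where it was otherwise -0.15, and no called member turned its sign.

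Leaving out 1 array at a time gave 2 to 5 called members for each of zone 2 against 1 and zone 3 against 2 on -Fe medium and 3 to 5 for zone 4 against 3. On standard medium the ranges were 0 to 4, 2 to 5 and 0 to 5, and the medium effect averaged over zones had 0 to 1. Where a group keeps 1 array, that array is assumed to vary like the other groups. Of 2156 comparisons of a member with an alternative, 2017 kept their side of the threshold and their sign, 56 lost a call, 9 gained one, 74 uncalled estimates changed sign, and 0 called estimates reversed. With 2 arrays per group their number limits the precision, and hybridization between close tubulin copies was not tested.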

Other observations

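A further probe set is annotated to 2 alpha-tubulin genes at once, TUA5 and TUA3, and so was not counted among the members. On -Fe medium it read 3224 and 2889 units in zone 1, 5287 and 5984 in zone 2, 5175 and 6082 in zone 3, then 1937 and 1766 in zone 4. On standard medium it read 3069 and 2543 units in zone 1, 5461 and 4665 in zone 2, 5472 and 9002 in zone 3, then 2701 and 2863 in zone 4. Its signal, shared by TUA5 and TUA3, was high in zones 2 and 3 and low at both ends, with no overlap between those pairs of zones. It rose from zone 1 to zone 2 by 0.88 on -Fe (limma, adjusted p = 0.0104) and by 0.85 on standard medium (adjusted p = 0.0184). The TUA5 and TUA3 signal fell from zone 3 to zone 4, with differences of -1.60 on -Fe (adjusted p = 0.000728) and -1.33 on standard medium (adjusted p = 0.00389). Zone 3 did not differ past the threshold from zone 2 on either medium for TUA5 and TUA3, at 0.00 on -Fe and 0.47 on standard medium (adjusted p = 0.99 and 0.0817). No medium contrast of this probe set passed.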
